A study of Mus musculus with 6 samples.

Results

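Aminoacyl-tRNA synthetases are the enzymes that join each amino acid to its transfer RNA (tRNA). They were followed in cultures of MOC2, a mouse oral squamous carcinoma line that the labels describe as an HPV-negative head and neck carcinoma. Members were found by a rule on symbols, set with earlier results of these data known. It takes a capital letter followed by ars, with or without a 1 or 2, together with Eprs, Farsa and Farsb. This gave 37 genes of the 55418 symbols in the table, all protein-coding, of which 20 encode cytosolic enzymes and 17, with the suffix 2, mitochondrial enzymes. All 37 passed the filter on low counts. There were 3 samples labelled EphA4 knockout and 3 samples labelled control CRISPR, measured by bulk RNA-seq of polyA-selected RNA. The knockout cells are a single clone, H3, so the edit and the clone cannot be told apart. Both groups were untreated, had been passaged 2 times after thawing, grew in the same medium with serum, EGF, hydrocortisone and insulin, and carry the same batch label. Separate cultures are not stated for the samples within a group, so p-values measure only how far these samples differ, and that spread may be technical.

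Each synthetase spends ATP to activate an amino acid and then loads it on the matching tRNA, and the loaded tRNA is carried to the ribosome by elongation factors. Mammalian cells keep separate enzymes for the cytosol and for the mitochondrion, all encoded in the nucleus and most by separate genes. For glycine and lysine a single gene supplies both compartments, so Gars and Kars have no partner with the suffix 2. Several cytosolic synthetases sit in a multi-synthetase complex held together by scaffold proteins. The transcription factor ATF4, which is made when amino acids are short or the endoplasmic reticulum is stressed, is known to raise many cytosolic synthetase genes together with genes of amino acid synthesis and import. Interferon-gamma is known to raise Wars.

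The transcript of the targeted gene was higher, not lower, in the samples labelled EphA4 knockout. Epha4 had 97.4, 103 and 98.1 CPM (counts scaled to library size, with TMM factors) in the samples labelled EphA4 knockout, against 51.4, 59.8 and 54.0 CPM in the control samples. Counts per gene do not show whether a transcript carries the edit or whether protein is made, so they do not test the label. EphA4 knockout is used here as the label of these samples. Every direction below is that of the samples so labelled against the samples labelled control. Library totals lay between 35115926 and 41775031 counts. EphA4 knockout replicate 3 stood apart from the other samples of its group, with a chi-square per degree of freedom of 31.74 and 30.85 against them, compared with 4.41 between replicates 1 and 2 and 6.81 to 8.89 between control samples. Without it, 10 cytosolic synthetase genes were lower and 6 higher, and 10 mitochondrial genes were higher and 5 lower. The epithelial markers summed to 4010 to 4054 CPM in EphA4 knockout samples and to 3839 to 3889 CPM in control samples, carried by Krt8, Krt18, Epcam and Cdh1. Their members went opposite ways, with 3 of 5 tested higher and 2 lower: Epcam had 624, 612 and 644 CPM in EphA4 knockout samples and 981, 960.0 and 921 CPM in control samples. Of the basal markers, Krt14 had 1.47 to 2.52 CPM in EphA4 knockout samples and 3.55 to 4.02 CPM in control samples, and Krt5 and Trp63 were under 1 CPM in all samples. The 7 fibroblast markers summed to 1.93 to 2.03 CPM in EphA4 knockout samples and to 48.0 to 51.4 CPM in control samples. Of these 7, 5 were tested and 5 were lower, and Lum was at 0 in all samples. Col1a2, not tested, went the other way near the floor, with 0.224, 0.298 and 0.272 CPM in EphA4 knockout samples and 0.108, 0 and 0.024 CPM in control samples. The 5 leukocyte markers summed to 4.31 to 4.80 CPM in EphA4 knockout samples and to 17.5 to 19.8 CPM in control samples, nearly all from Cd68, with Cd3e and Adgre1 at 0. Ptprc had 0.503, 0.434 and 0.191 CPM in EphA4 knockout samples and 0.0809, 0.0283 and 0.24 CPM in control samples. The part of these marker differences in the results below was not tested. In bulk RNA, fewer cells of a type and less RNA per cell cannot be told apart.

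A large share of all genes differed between the groups. In edgeR's quasi-likelihood test with Benjamini-Hochberg adjustment over all 15199 tested genes, 71.5% passed an adjusted p of 0.05, with 32.7% higher and 38.8% lower in the EphA4 knockout samples. Of the 37 synthetase genes, 29 (78.4%) passed, 14 higher and 15 lower. Their changes were mostly small. Of the 37, 2 passed with a log2 fold change of at least 1 in size, the mitochondrial genes Mars2 and Fars2, against 30.5% of all tested genes. The median size of the log2 fold change, without its sign, was 0.46 over the synthetases and 0.65 over all tested genes.

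**Figure D1:**
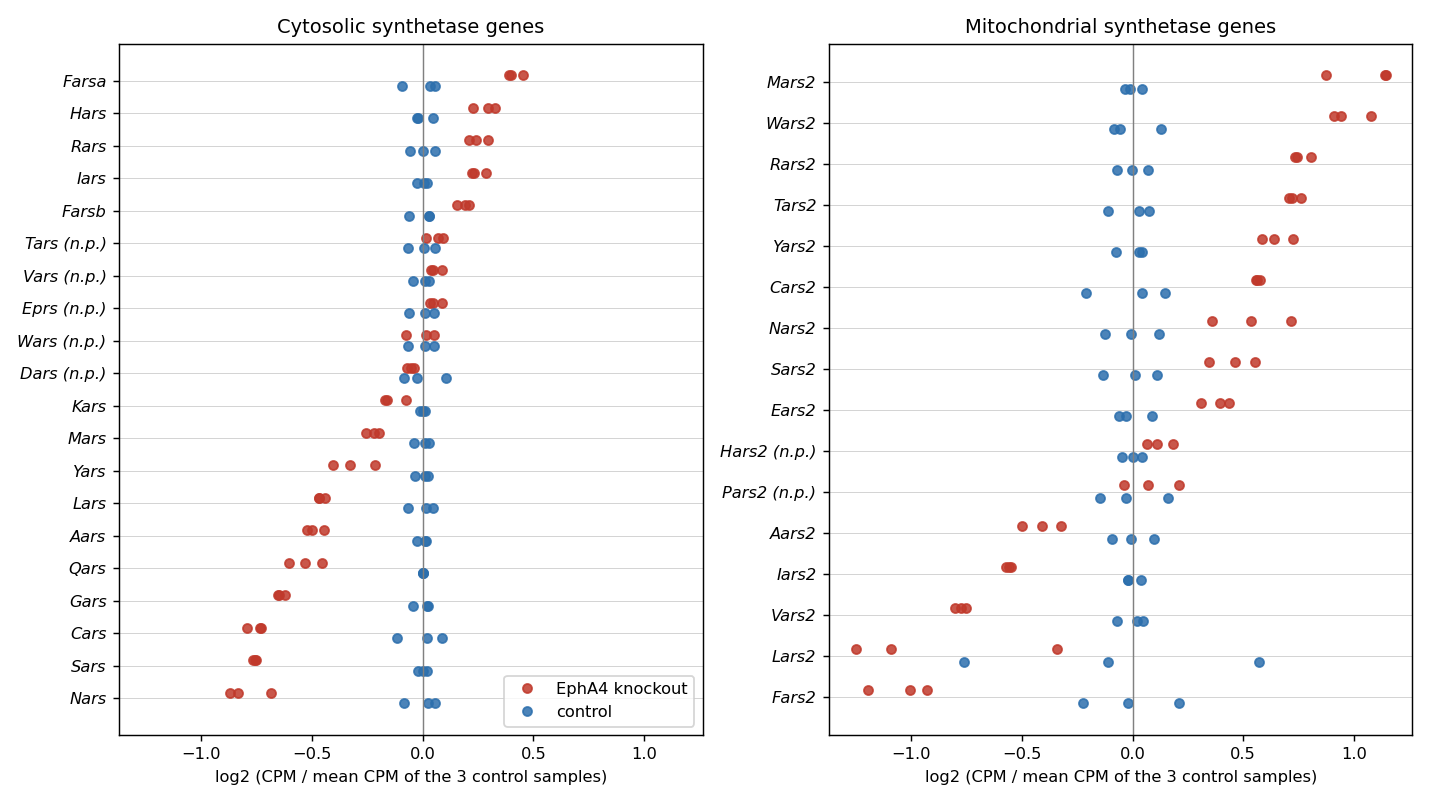
Level of 36 synthetase genes in each sample, as log2 of its CPM over the gene's mean CPM in the 3 control samples. Points are samples, EphA4 knockout above control for each gene, with cytosolic and mitochondrial genes in separate panels. Nars, Sars and Cars lie lowest among the cytosolic genes, Mars2 and Wars2 highest and Fars2 lowest among the mitochondrial genes, and the Lars2 points are spread widely in both groups.

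More cytosolic genes were lower than higher. Of the 20, 10 were lower, 5 were higher and 5 did not pass, so 50% were lower against 38.8% of all tested genes, and the median log2 fold change was -0.09 against -0.04. Without control replicate 3 these medians were -0.033 and 0.0268. Counted by sample ranges, 10 genes had all EphA4 knockout samples below all control samples, 6 had them above and 4 overlapped. Over all tested genes 76.1% did not overlap, 41.4% below and 34.6% above. The summed level of the 20 genes was 5159, 5146 and 5370.1 CPM in EphA4 knockout samples and 6114, 6185 and 6207 CPM in control samples, a ratio of 0.847. Nars, Aars and Sars contributed most to the lower sum.

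Nars, which loads asparagine, fell most. It had 331, 339.9 and 376 CPM in EphA4 knockout samples, against 572, 628 and 616 CPM in control samples, a log2 fold change of -0.80 ± 0.06 (SE, n = 3 each) with an adjusted p of 2.4e-06. The lowest control sample was well above the highest knockout sample. Sars, for serine, had 295, 293 and 296 CPM in EphA4 knockout samples, against 506, 491 and 499.8 CPM in control samples. Its samples lay close together within each group, and its log2 fold change of -0.76 ± 0.03 had the smallest adjusted p of all members, 8.5e-08. Cars, for cysteine, had 126, 131 and 131 CPM in EphA4 knockout samples and 232, 201 and 221 CPM in control samples (log2 fold change -0.75 ± 0.05, adjusted p 2e-06).

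Gars, for glycine, followed with 274, 275 and 279.8 CPM in EphA4 knockout samples and 437, 418 and 437 CPM in control samples (log2 fold change -0.64 ± 0.03, adjusted p 3.4e-07). Qars, for glutamine, had 159.7, 152 and 168 CPM in EphA4 knockout samples, against 231 CPM in each control sample (log2 fold change -0.53 ± 0.04). Aars, for alanine, is among the most abundant members and had 568, 577 and 599.8 CPM in EphA4 knockout samples, against 826, 822 and 802 CPM in control samples (log2 fold change -0.49 ± 0.04). In none of the genes from Nars to Aars did the groups overlap. Aars shares 1326 exon bases on the same strand with Exosc6, which had 0 counts in all samples. Smaller falls were measured for Lars (leucine, log2 fold change -0.46), Yars (tyrosine, -0.31), Mars (methionine, -0.22) and Kars (lysine, -0.13). Mars shares 68 exon bases with Ddit3 on the opposite strand. Kars was close to the threshold, with an adjusted p of 0.0099, and leaving out EphA4 knockout replicate 1 or 2 or control replicate 1 or 3 gave adjusted p-values of 0.082 to 0.13.

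Rises in the cytosolic class were smaller. Farsa, the catalytic subunit of the phenylalanine enzyme, rose most, with 133, 127 and 128 CPM in EphA4 knockout samples against 91.2, 99.5 and 101 CPM in control samples (log2 fold change 0.41 ± 0.05, adjusted p 4.6e-05). Farsb, the other subunit of the same enzyme, had 84.1, 86.1 and 87.3 CPM in EphA4 knockout samples and 72.3, 77.1 and 77.1 CPM in control samples (log2 fold change 0.18 ± 0.04, adjusted p 0.0041). The subunits did not keep their ratio: there were 1.58, 1.48 and 1.47 Farsa counts per Farsb count in EphA4 knockout samples and 1.26, 1.29 and 1.31 in control samples. That is a difference of 0.23 on the log2 scale, with an exact two-sided permutation p of 0.1, the smallest that 3 against 3 samples can give. Hars (histidine), Rars (arginine) and Iars (isoleucine) rose with log2 fold changes of 0.28, 0.25 and 0.25, each with all EphA4 knockout samples above all control samples. A processed pseudogene, Gm4849, matches Iars at 96.0% identity over 1656 bases, so reads of the pair can be split, but Gm4849 itself reached at most 2.75 CPM.

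The cytosolic genes that did not pass were Wars, Dars, Eprs, Tars and Vars. Wars, for tryptophan, had 117, 110.4 and 120.5 CPM in EphA4 knockout samples and 120.5, 117 and 111 CPM in control samples, with a log2 fold change of 0.00 ± 0.05. Its means, 116 CPM in each group, differed by far less than the SD of 5.17 CPM in EphA4 knockout samples and 4.79 CPM in control samples. Dars, for aspartate, had 122, 121 and 123 CPM in EphA4 knockout samples and 119.5, 125 and 136 CPM in control samples.

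Eprs, whose product loads both glutamate and proline, had 454, 449.9 and 466 CPM in EphA4 knockout samples and 421, 455 and 443 CPM in control samples. Tars, for threonine, had 193, 200.5 and 204 CPM in EphA4 knockout samples and 183, 199 and 192 CPM in control samples. Vars, for valine, had 567, 569 and 586 CPM in EphA4 knockout samples and 564, 556 and 536 CPM in control samples, so its ranges did not overlap although its log2 fold change of 0.06 ± 0.04 had an adjusted p of 0.18. The log2 fold changes of Dars, Eprs and Tars were -0.06, 0.05 and 0.06.

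Membership of the multi-synthetase complex and the catalytic class, groupings made after these values were seen, gave similar counts. Of the 8 single-chain enzymes of the complex (Dars, Eprs, Iars, Kars, Lars, Mars, Qars and Rars), 4 were lower, 2 higher and 2 did not pass, and of the 12 genes outside it 6 were lower, 3 higher and 3 did not pass. Synthetases fall into class I and class II by the fold of the catalytic domain. Of the 9 class I genes, 5 were lower and 2 higher, and of the 10 class II genes 5 were lower and 3 higher, with Eprs, which holds a domain of each, left out. Among all tested genes 38.8% were lower, 32.7% higher and 71.5% passed, so passing was common outside these groupings too. The scaffolds of the complex were read beside its enzymes. Aimp2 had 92.0, 93.6 and 83.6 CPM in EphA4 knockout samples and 48.1, 47.8 and 48.6 CPM in control samples, a log2 fold change of 0.90 ± 0.05 (adjusted p 6.7e-07). Eef1e1, also called AIMP3, had a log2 fold change of 0.58 ± 0.10 (adjusted p 0.00066), and Aimp1 did not pass, with -0.02 ± 0.05. There were 0.84, 0.87 and 0.78 Aimp2 counts per Aimp1 count in EphA4 knockout samples, against 0.46, 0.45 and 0.41 in control samples. Exons of Aimp2 overlap those of Eif2ak1 on the opposite strand over 487 bases, 29.4% of the Aimp2 exons, and Eif2ak1 was also higher (log2 fold change 0.91). The strand setting of the counting is not given in the sources used here, so reads of the shared stretch cannot be told apart.

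Promoter sequences were read for members with an entry in the RefSeq promoter table (build GRCm38.p6), which holds 250 bases before and 50 bases after each gene's start. Of the 37 members, 27 had a window, 13 of them cytosolic and 14 mitochondrial, with 28 windows in all. The motif bound by ATF4 with C/EBP proteins was searched as TGATGNAA on both strands (reverse complement TTNCATCA), and the E-box as CACGTG, which is its own reverse complement. The 4 windows shown are those of changed members that hold the ATF4 motif, 3 from genes that fell and Iars from a gene that rose. Capitals mark matches to either motif, and all 4 genes lie on the plus strand, at chr6:55037751-55038050 for Gars, chr8:111033592-111033891 for Aars, chr4:129189653-129189952 for Yars and chr13:49681880-49682179 for Iars.
Gars: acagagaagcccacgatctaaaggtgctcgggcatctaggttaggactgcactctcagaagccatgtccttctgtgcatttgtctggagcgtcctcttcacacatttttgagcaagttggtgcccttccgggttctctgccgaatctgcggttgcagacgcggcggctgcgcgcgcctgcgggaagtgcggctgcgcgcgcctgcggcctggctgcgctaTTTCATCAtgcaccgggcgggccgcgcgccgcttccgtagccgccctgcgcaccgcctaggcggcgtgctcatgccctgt
Aars: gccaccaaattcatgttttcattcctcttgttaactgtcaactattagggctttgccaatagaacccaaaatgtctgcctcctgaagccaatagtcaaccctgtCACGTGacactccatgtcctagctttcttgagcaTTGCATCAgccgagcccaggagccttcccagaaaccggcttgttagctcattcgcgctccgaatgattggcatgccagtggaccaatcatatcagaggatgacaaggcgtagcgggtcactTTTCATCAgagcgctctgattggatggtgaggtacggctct
Yars: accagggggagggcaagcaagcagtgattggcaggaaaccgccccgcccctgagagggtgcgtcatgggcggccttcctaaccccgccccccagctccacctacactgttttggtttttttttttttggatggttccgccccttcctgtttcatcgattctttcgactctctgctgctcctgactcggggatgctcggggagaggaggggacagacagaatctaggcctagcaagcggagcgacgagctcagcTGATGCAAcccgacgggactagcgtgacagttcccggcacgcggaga
Iars: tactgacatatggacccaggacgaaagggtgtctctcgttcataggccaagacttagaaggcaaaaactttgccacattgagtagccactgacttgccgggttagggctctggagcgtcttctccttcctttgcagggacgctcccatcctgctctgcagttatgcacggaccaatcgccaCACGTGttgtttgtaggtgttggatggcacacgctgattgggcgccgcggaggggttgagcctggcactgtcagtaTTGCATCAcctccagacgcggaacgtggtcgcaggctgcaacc

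Matches to TGATGNAA were found in 5 of the 13 cytosolic windows (38.5%), those of Aars, Gars, Iars, Tars and Yars, and in 0 of the 14 mitochondrial genes, against 3.97% of all 32851 windows. They begin at position -30 from the start in Gars, at -112 and 10 in Aars, at 4 in Yars and at 8 in Iars. By outcome, the motif was in 3 of 7 cytosolic genes that were lower, 1 of 3 that were higher and 1 of 3 that did not pass. CACGTG was found in 4 of 13 cytosolic genes (Aars, Farsb, Iars and Tars) and 1 of 14 mitochondrial genes (Ears2), against 7.15% of all windows. In Aars and Iars it lies in the window shown above. In the 4 windows shown, the matches of TGATGNAA and CACGTG do not overlap. A match describes letters in a window and does not show binding.

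More mitochondrial genes were higher than lower. Of the 17, 9 were higher, 5 were lower and 3 did not pass, so 52.9% were higher against 32.7% of all tested genes. The median log2 fold change was 0.38 against -0.04. By sample ranges, 10 lay above the control samples without overlap, 4 below and 3 overlapped. Among all tested genes 76.1% did not overlap, 34.6% above and 41.4% below. Their summed level was 555, 539 and 586 CPM in EphA4 knockout samples and 704, 615 and 571 CPM in control samples. Without Lars2, the sum was 485, 477 and 469 CPM in EphA4 knockout samples and 484, 478 and 484 CPM in control samples, a ratio of 0.989. Although more genes rose than fell, the sum over the other 16 genes differed by less than the spread between EphA4 knockout samples.

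Mars2, the mitochondrial methionine enzyme, rose most. It had 40.5, 40.4 and 33.6 CPM in EphA4 knockout samples, against 18.9, 18.2 and 17.9 CPM in control samples, a log2 fold change of 1.06 ± 0.08 with an adjusted p of 4.9e-06. Wars2, for tryptophan, had 16.4, 14.9 and 14.5 CPM in EphA4 knockout samples and 8.47, 7.45 and 7.32 CPM in control samples (log2 fold change 0.98 ± 0.11, adjusted p 5.9e-05). In both genes every EphA4 knockout sample lay above every control sample. Rars2 (arginine) had 30.7, 30.9 and 32.3 CPM in EphA4 knockout samples and 17.6, 18.4 and 19.4 CPM in control samples, a log2 fold change of 0.76 ± 0.07. Tars2 (threonine) had 66.3, 63.9 and 64.6 CPM in EphA4 knockout samples and 36.3, 41.3 and 39.9 CPM in control samples, a log2 fold change of 0.73 ± 0.06.

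Yars2 (tyrosine), Cars2 (cysteine), Nars2 (asparagine), Sars2 (serine) and Ears2 (glutamate) rose by log2 fold changes of 0.65, 0.56, 0.54, 0.46 and 0.38, each without overlap of the groups. Nars2, at 7.92, 7.02 and 8.98 CPM in EphA4 knockout samples and 5.45, 5.01 and 5.95 CPM in control samples, and Ears2 were the least firm of these, each with an adjusted p of 0.015. With no filter on low counts the adjusted p was 0.089 for Nars2 and 0.12 for Ears2, and the cytosolic Farsb also missed the threshold at 0.073.

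Fars2, the mitochondrial phenylalanine enzyme, fell most of the 37. It had 11.4, 11.98 and 9.96 CPM in EphA4 knockout samples, against 26.4, 19.6 and 22.5 CPM in control samples (log2 fold change -1.04 ± 0.13, adjusted p 7.7e-05). Exons of Fars2 overlap those of Nrn1 on the opposite strand over 501 bases, and Nrn1 was at 0 in all EphA4 knockout samples and at most 0.30 CPM in control samples. Vars2 (valine) had 59.8, 57.8 and 58.9 CPM in EphA4 knockout samples and 104, 102 and 96.0 CPM in control samples (log2 fold change -0.78 ± 0.05, adjusted p 6.5e-07). Iars2 (isoleucine) had 88.5, 89.1 and 87.6 CPM in EphA4 knockout samples and 129, 129 and 134 CPM in control samples (log2 fold change -0.56 ± 0.04). Iars2 shares 2034 exon bases, 22.9% of its exons, with Rab3gap2 on the opposite strand, and Rab3gap2 was lower too (44.5, 43.7 and 43.5 CPM in EphA4 knockout samples, 69.9, 66.4 and 68.8 CPM in control samples). Reads of that stretch cannot be told apart without a strand setting. Aars2 (alanine) had a log2 fold change of -0.41 ± 0.08 (adjusted p 0.0015).

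Pars2 and Hars2 were among the mitochondrial genes that did not pass. Pars2 (proline) had 7.47, 6.29 and 6.78 CPM in EphA4 knockout samples and 5.83, 7.22 and 6.33 CPM in control samples. Hars2 (histidine) had 22.8, 21.6 and 21.0 CPM in EphA4 knockout samples and 20.7, 19.4 and 20.1 CPM in control samples. The groups overlapped for Pars2 and lay just apart for Hars2, whose adjusted p was 0.17. Hars and Hars2 start next to each other on opposite strands and share 195 exon bases.

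Lars2, the mitochondrial leucine enzyme, had the largest SE of the 37 genes. There were 69.6, 62.3 and 117 CPM of it in EphA4 knockout samples and 220.1, 137 and 87.4 CPM in control samples, so the groups overlapped. Its log2 fold change of -0.84 ± 0.33 had an adjusted p of 0.048, and without control replicate 1 it was -0.39 with an adjusted p of 0.29. The call was also lost without control replicate 2 (0.092) or without EphA4 knockout replicate 1 (0.12) or 2 (0.13), and by DESeq2 (0.11) and limma-voom (0.054). The non-coding gene model Gm42418, which is known to collect reads of ribosomal RNA, was looked at beside it after values were seen. It had 548, 613 and 1393 CPM in EphA4 knockout samples and 1628, 1001 and 693 CPM in control samples. Replicate 3 was the highest EphA4 knockout sample and replicate 1 the highest control sample for both genes, and the non-coding model Gm26917 had the same order as Gm42418, with 108, 118 and 162 CPM in EphA4 knockout samples and 238, 190.4 and 128 CPM in control samples. The part of ribosomal RNA reads in the Lars2 result was not tested.

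**Figure D2:**
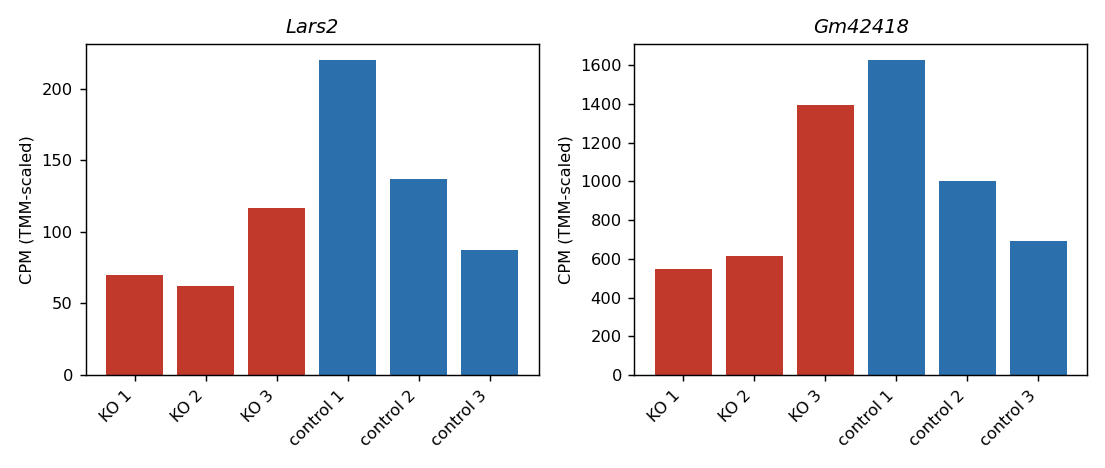
Level of Lars2 (left) and of the non-coding gene model Gm42418 (right) in each sample, in CPM; bars are single samples, KO standing for EphA4 knockout. In both panels the highest bar is control replicate 1 and the highest EphA4 knockout bar is replicate 3.

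Cytosolic and mitochondrial enzymes for the same amino acid were set side by side. There were 18 pairs of a cytosolic gene with the mitochondrial gene for the same amino acid, in which Fars2 and Eprs each occur in more than 1 pair. In 5 pairs the cytosolic gene was lower and the mitochondrial gene higher, those for cysteine, methionine, asparagine, serine and tyrosine. In 3 pairs the cytosolic gene was higher and the mitochondrial gene lower, Farsa and Farsb against Fars2 and Iars against Iars2. Both were lower for alanine and leucine and both higher for arginine, and in 7 pairs at least 1 gene did not pass. The 8 pairs called in opposite directions are 44.4% of the 18. No such share was computed over pairs of other genes, and 32.7% of all tested genes were higher and 38.8% lower. A ratio of counts within a sample does not depend on library scaling. By that ratio, 9 pairs were lower in all EphA4 knockout samples than in any control sample, 5 were higher and 4 overlapped. The share without overlap, 77.8% of the pairs, is near the 76.1% of all tested genes whose own ranges did not overlap. Each of the 14 non-overlapping pairs has an exact two-sided permutation p of 0.1, the smallest that 3 against 3 samples allow, so no single pair can pass 0.05.

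The largest shift towards the mitochondrial gene was in asparagine. There were 41.8, 48.4 and 41.9 Nars counts per Nars2 count in EphA4 knockout samples, against 104.9, 125 and 103.5 in control samples, a difference of -1.34 on the log2 scale. Cysteine was next, with 3.96, 4.19 and 4.17 Cars counts per Cars2 count in EphA4 knockout samples and 12.6, 8.53 and 10.1 in control samples (-1.32). Cars2 shares 422 exon bases with Naxd on the opposite strand, which was lower, opposite to Cars2. For methionine there were 3.26, 3.14 and 3.86 Mars counts per Mars2 count in EphA4 knockout samples and 8.06, 8.10 and 8.61 in control samples (-1.28). For serine the ratio was 20.3, 23.3 and 21.7 in EphA4 knockout samples and 47.4, 54.3 and 50.1 in control samples (-1.22). Wars and Wars2 also parted, at 7.18, 7.42 and 8.29 in EphA4 knockout samples and 14.2, 15.7 and 15.2 in control samples (-0.98), through Wars2 alone passing the test.

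Phenylalanine, valine and isoleucine moved the other way. There were 11.7, 10.6 and 12.9 Farsa counts per Fars2 count in EphA4 knockout samples, against 3.45, 5.08 and 4.49 in control samples, a difference of 1.45 on the log2 scale and the largest of the 18. The Vars to Vars2 ratio was 9.48, 9.86 and 9.95 in EphA4 knockout samples and 5.41, 5.44 and 5.58 in control samples (0.83). The Iars to Iars2 ratio was 3.72, 3.71 and 3.93 in EphA4 knockout samples and 2.15, 2.20 and 2.14 in control samples (0.81). The alanine ratios overlapped between the groups, with 27.5, 29.8 and 27.4 in EphA4 knockout samples and 28.2, 32.1 and 29.5 in control samples. The leucine ratio overlapped too, and it carries the spread of Lars2.

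**Figure D3:**
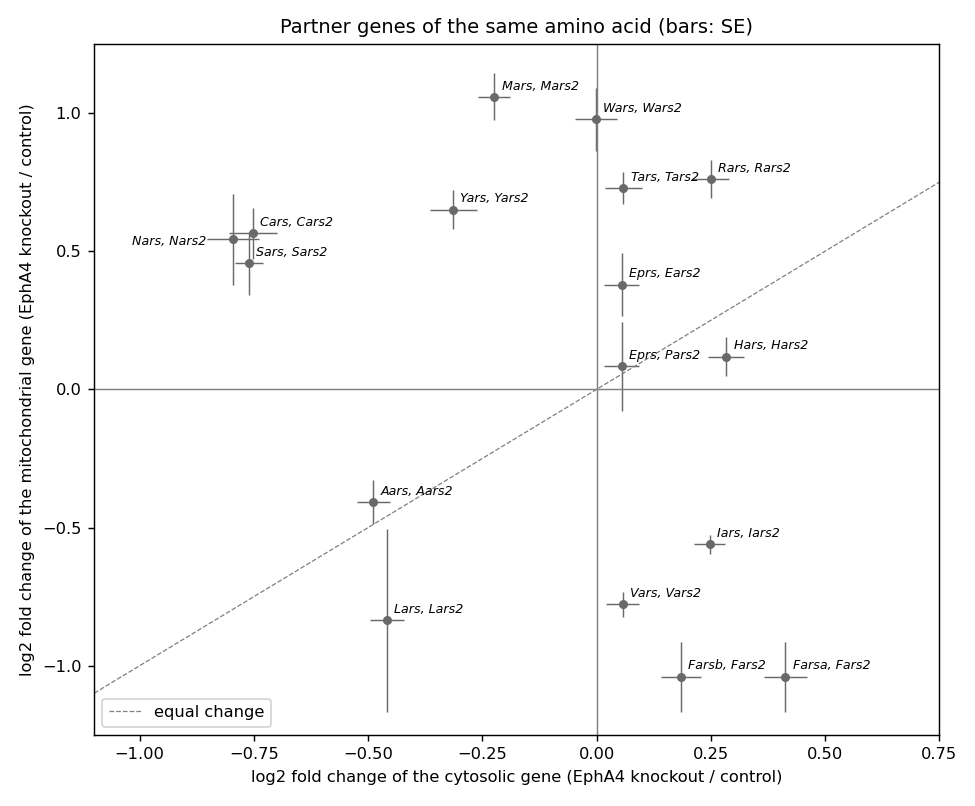
Log2 fold change (EphA4 knockout over control) of the cytosolic gene on the horizontal axis and of its mitochondrial partner on the vertical axis, with bars of 1 SE and a dashed line of equal change. Asparagine, cysteine and serine lie in the upper left, with the cytosolic gene lower and the mitochondrial gene higher, and the Fars2 pairs in the lower right.

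Levels between genes were compared as CPM per kilobase of the principal transcript. In EphA4 knockout samples the cytosolic genes ran from 29.9 (Yars) to 267.7 (Kars) and the mitochondrial genes from 2.11 (Nars2) to 27.1 (Tars2). In control samples the cytosolic genes ran from 37.1 (Farsb) to 293.9 (Kars) and the mitochondrial genes from 1.45 (Nars2) to 38.1 (Lars2). Kars was first among the cytosolic genes in both groups. The order below it changed: Rars was at rank 2 in EphA4 knockout samples and at rank 6 in control samples, and Cars was at rank 19 in EphA4 knockout samples and at rank 10 in control samples. Nars was at rank 4 in EphA4 knockout samples and at rank 2 in control samples. Among the mitochondrial genes, Tars2 was at rank 1 in EphA4 knockout samples and at rank 4 in control samples, and Fars2 at rank 13 in EphA4 knockout samples and at rank 7 in control samples. Neighbours in these orders often lay closer than the spread between samples, as Lars and Cars did in EphA4 knockout samples, at 40.2 and 40.1 CPM per kilobase. Lars2 averaged above Farsb and Yars (37.1 and 37.2), the lowest cytosolic genes, in control samples. That order rests on control replicate 1: by sample Lars2 had 56.5, 35.2 and 22.4 CPM per kilobase there, and 28.8 on average without that replicate. In EphA4 knockout samples the mean of every mitochondrial gene was below that of every cytosolic gene.

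**Figure D4:**
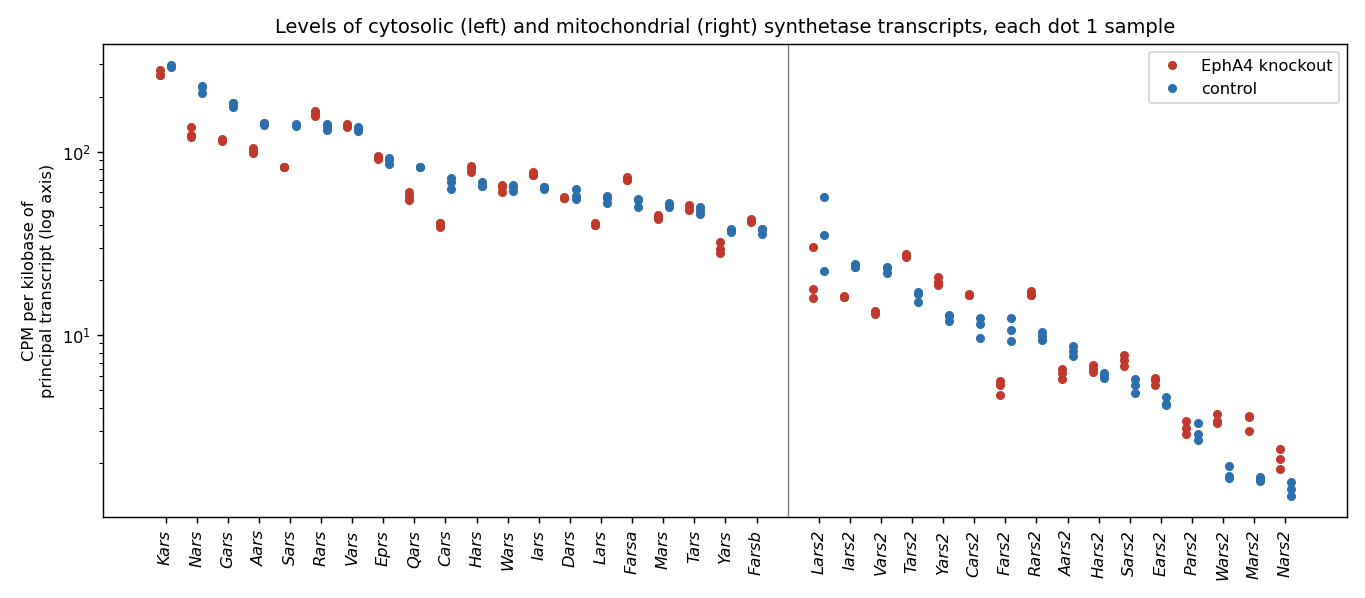
Level of 36 synthetase genes in CPM per kilobase of principal transcript on a log axis, cytosolic genes left of the line and mitochondrial genes right of it, each sorted by the control mean. Points are samples, EphA4 knockout left of control for each gene. Cytosolic genes in control samples average 37.1 to 293.9 and mitochondrial genes 1.45 to 38.1.

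The other genes of the tRNA pathway were read from the same fit. Their lists, and those of Atf4 and of the interferon-gamma axis below, were chosen with earlier results of these data known. Shares set beside those of all tested genes therefore describe the lists and are no test of them. RNA polymerase III transcribes tRNA genes. Of 20 genes of the polymerase, its factors TFIIIB and TFIIIC and its repressor Maf1, 16 were higher, 3 lower and 1 did not pass, with a median log2 fold change of 0.47. Over all tested genes, 32.7% were higher, 38.8% lower and 71.5% passed. Bdp1, a TFIIIB subunit, had a log2 fold change of 1.54 ± 0.11 and Gtf3c6, a TFIIIC subunit, of 1.37 ± 0.06. Maf1, which represses the polymerase, had 19.0, 16.8 and 17.2 CPM in EphA4 knockout samples and 50.2, 43.6 and 45.3 CPM in control samples (log2 fold change -1.39 ± 0.08). Polr3gl fell as well, with a log2 fold change of -2.48 ± 0.14. It encodes an alternative form of the subunit that Polr3g supplies. In tRNA maturation and export, 8 of 14 genes were higher, 1 was lower and 5 did not pass. Among the 8, Rtcb overlapped between the groups and had an adjusted p of 0.049. Without control replicate 2 or EphA4 knockout replicate 1 its adjusted p was 0.073. Pop1 and Rpp30, subunits of the RNase P that trims the 5' end, had log2 fold changes of 1.46 ± 0.06 and 0.98 ± 0.09, and Elac2, which trims the 3' end, of 1.29 ± 0.06. The gene that was lower, Elac1, had a log2 fold change of -0.68 ± 0.19, and without control replicate 2 or 3 its adjusted p was 0.077 or 0.071.

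The steps after loading were mixed. Of 5 tested cytosolic elongation factor genes, 3 were lower and 2 higher, against 38.8% and 32.7% of all tested genes. Eef1a1, which brings loaded tRNA to the ribosome, had 8501, 8049 and 7899 CPM in EphA4 knockout samples and 10840, 11195 and 11347 CPM in control samples (log2 fold change -0.45 ± 0.05). Eef1b2 (-0.53) and Eef2 (-0.20) were lower and Eef1d (0.30) and Eef1g (0.26) higher, while Eef1a2 had 0 counts in all samples. Without control replicate 1 the adjusted p of Eef2 was 0.06. Of 9 mitochondrial translation factors, 3 were higher, 3 lower and 3 did not pass, shares near those of all tested genes. Gfm1, the mitochondrial elongation factor G, had 142, 148 and 157 CPM in EphA4 knockout samples and 63.3, 69.8 and 68.2 CPM in control samples (log2 fold change 1.15 ± 0.05, adjusted p 1.8e-07). Tufm, the mitochondrial elongation factor that carries loaded tRNA, rose by 0.34, and its exchange factor Tsfm (-0.43) and the release factor Mtrf1 (-0.75) were lower. Without control replicate 1, Mtrf1 passed only just, with an adjusted p that rounds to 0.05.

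Mitochondria have no separate glutaminyl-tRNA synthetase and make that tRNA by amidating a glutamate-loaded tRNA. Of the amidation genes, Gatc rose (log2 fold change 0.65 ± 0.08, adjusted p 5.5e-05), while Gatb (0.25, adjusted p 0.066) and Qrsl1 (0.23, adjusted p 0.068) did not pass. Mtfmt, which formylates the methionine loaded by Mars2, fell, with 14.1, 14.0 and 11.8 CPM in EphA4 knockout samples and 21.5, 21.0 and 18.04 CPM in control samples (log2 fold change -0.60 ± 0.11). The number of these 4 genes called higher, 1 here, was 3 with relative log expression factors, with a filter of 5 CPM and with limma-voom. Gatb passed without EphA4 knockout replicate 3 (adjusted p 0.011), and Qrsl1 passed without EphA4 knockout replicate 2 (0.045) or control replicate 1 (0.046).

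Of the 5 genes of proofreading or synthetase-like proteins, Tarsl2, a threonyl-tRNA synthetase-like gene, rose (log2 fold change 0.59 ± 0.11), and Dtd1, which removes D-amino acids from tRNA, fell (-0.57 ± 0.06). Prorsd1 (-0.55) and Dtd2 (-0.35) were lower, and neither passed without control replicate 3 (adjusted p 0.061 and 0.087), nor Dtd2 without control replicate 2 (0.056). Aarsd1, which removes serine misloaded on alanine tRNA, was at 1.01, 0.79 and 3.13 CPM in EphA4 knockout samples and at 0.27, 0.25 and 0.26 CPM in control samples. It had 36, 29 and 115 counts in EphA4 knockout samples and 10, 9 and 11 counts in control samples, so it passed the filter on low counts through the group where it was high, and it was not tested under a filter of 5 CPM. Its log2 fold change was 2.63 ± 0.58, and 1.81 without EphA4 knockout replicate 3. It shares 41.0% of its exon bases with Gm27029 on the same strand.

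**Figure D5:**
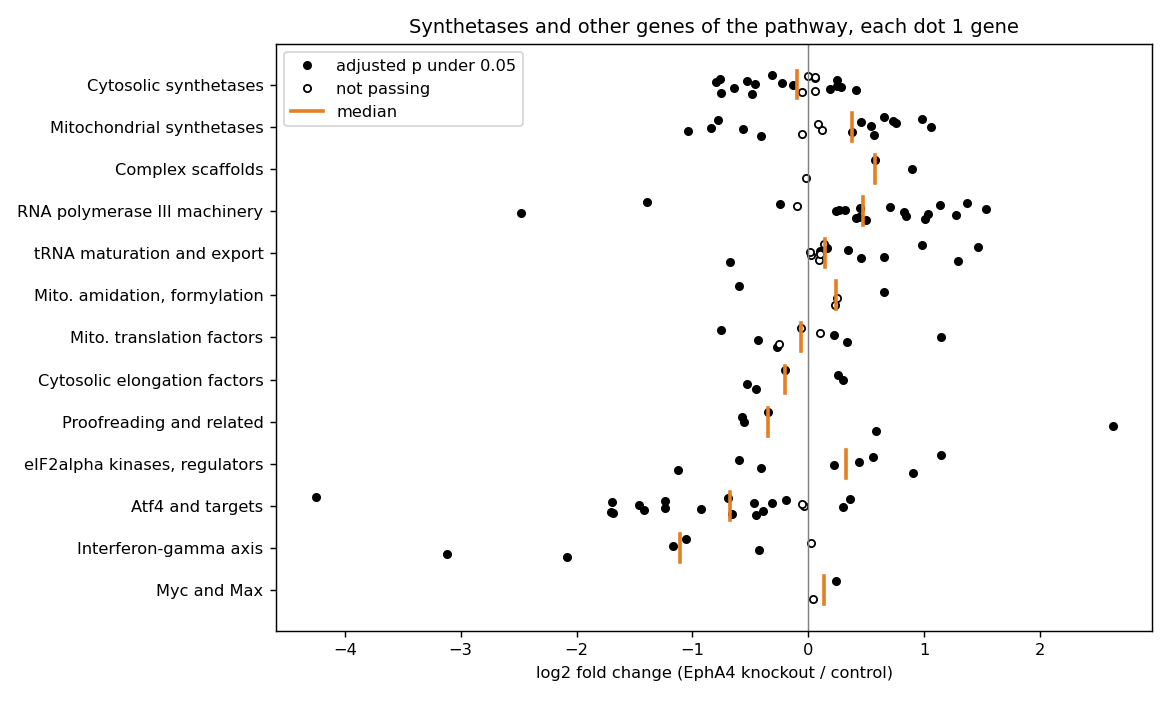
Log2 fold change (EphA4 knockout over control) of each tested gene in the synthetase classes and in the other lists, filled where the adjusted p was under 0.05 and open where not, with the median of each list as a bar. Medians are 0.47 for the RNA polymerase III genes, -0.68 for Atf4 and its targets and -1.11 for the interferon-gamma axis.

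Of Atf4 and 19 of its known targets, taken without synthetases, 16 were lower, 2 higher and 2 did not pass, with a median log2 fold change of -0.68. Over all tested genes 38.8% were lower and 32.7% higher, with a median of -0.04. Nupr1, a stress-induced nuclear protein, had 6.94, 7.35 and 8.14 CPM in EphA4 knockout samples and 158, 131 and 138 CPM in control samples (log2 fold change -4.25 ± 0.09, adjusted p 3.4e-09). Cebpb, a C/EBP factor that can pair with ATF4, had a log2 fold change of -1.70 ± 0.04, Gpt2, an alanine aminotransferase, of -1.69 ± 0.06 and Ddit3, the stress factor CHOP, of -1.69 ± 0.11. Cebpb shares 20.7% of its exon bases with Tmem189 on the opposite strand.

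Atf4 itself and Asns, which makes asparagine, were picked from this list after their values were seen, as were the members that were not lower. Slc7a5 and Psat1 were higher, with log2 fold changes of 0.36 ± 0.05 and 0.30 ± 0.04. Phgdh (-0.04) and Shmt2 (-0.05) did not pass. Atf4 had 284, 285 and 254 CPM in EphA4 knockout samples and 357, 381 and 385 CPM in control samples (log2 fold change -0.45 ± 0.05, adjusted p 6.6e-05). Asns had 135, 144 and 151 CPM in EphA4 knockout samples and 333.2, 350.3 and 333.1 CPM in control samples (log2 fold change -1.24 ± 0.05), so the asparagine-making gene and the asparagine-loading gene Nars were both lower. ATF4 is controlled mostly at translation, which transcript counts do not measure. All 8 genes of the kinases that sense amino acid shortage or stress and of their regulators passed, 5 higher and 3 lower. Such calls were common, with 71.5% of all tested genes passing, 32.7% higher and 38.8% lower. Impact, an inhibitor of the kinase GCN2, had a log2 fold change of 1.14 ± 0.15, Eif2ak1 of 0.91 ± 0.06, Eif2ak2, the double-stranded RNA kinase PKR, of -1.12 ± 0.06 and Ppp1r15a, which helps to end the response, of -0.59 ± 0.05.

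Wars did not pass, while most of the genes known to control it were lower. Of 6 genes of the interferon-gamma axis, 5 were lower and 1 did not pass, against 38.8% lower among all tested genes. Irf1, a transcription factor induced by interferon-gamma, had 36.1, 35.9 and 36.4 CPM in EphA4 knockout samples and 153, 157 and 149 CPM in control samples (log2 fold change -2.08 ± 0.04). The receptor genes Ifngr1 and Ifngr2 had log2 fold changes of -0.42 ± 0.07 and -1.17 ± 0.08, Jak2 of -1.05 ± 0.06, and Jak1 did not pass (0.03 ± 0.03). Wars, with 117, 110.4 and 120.5 CPM in EphA4 knockout samples against 120.5, 117 and 111 CPM in control samples, overlapped between the same groups. Of Myc and its partner Max, whose dimers bind CACGTG, Myc did not pass (log2 fold change 0.04 ± 0.04), Max rose by 0.24 ± 0.05, and Mycn was too low to be tested.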

How the data were processed

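RNA-seq of 6 samples was used, 3 labelled EphA4 knockout and 3 labelled control CRISPR, grouped by their titles. The authors deposited raw counts for each gene symbol in 1 table, with no normalization. According to the submitters' processing notes, reads were aligned with STAR and the build was GRCm39, both without a version. The counting tool, annotation and strand setting were not given in the sources used here. Library totals ran from 35115926 to 41775031 counts, and their depth sets the precision through the counts of each gene. Members and lists were chosen with earlier results of these data known.

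Of 28042 genes with any count, 15199 passed filterByExpr. Counts were scaled with TMM factors, and the two-sided quasi-likelihood test of edgeR 4.0.16 in R 4.3.3 compared the groups, with no other term. P-values were adjusted by the Benjamini-Hochberg method over all tested genes, with a threshold of 0.05. The SE was derived from the log2 fold change and its F statistic (size of the change over the root of F). The procedure was tested on simulated counts in which only a small share of genes was changed. It was not tested for a table in which 71.5% of genes pass, or for changes as small as those of Kars and Farsb. Partner ratios of CPM were compared by an exact two-sided permutation test. Chromosomes, transcript lengths and exon overlaps came from GENCODE M21 (build GRCm38), matched by symbol, so overlaps are those of that release. Promoters came from RefSeq (GRCm38.p6), with Mars matched as Mars1, and 10 members had no entry.

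All members could be named, but some values, those of 1 member among them, are not reported here. Values for each sample were due for the largest changes of each class, for log2 fold changes of at least 1, for members that did not pass and for partners, and of lists longer than 6 genes up to 4 passing genes were named by size of change. Alternatives were relative log expression factors, library size alone, no filter, at least 5 CPM in 3 libraries, DESeq2 1.42.0, limma-voom (limma 3.58.1), a replicate block and leaving out each sample. No 2 libraries were alike within counting noise, and EphA4 knockout replicate 3 stood apart from its group.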

Additional observations from a re-analysis of the deposited data

How the results depend on the processing

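Under 13 alternatives, 25 of the 36 members reported by name kept direction and call, among them 24 of the 29 that passed. The numbers of cytosolic and mitochondrial genes called in each direction stayed within 1.5 times of the reported ones. The median log2 fold change of the cytosolic genes, -0.09, was -0.0636 with relative log expression factors, -0.0637 by DESeq2, -0.1625 with no filter, and -0.0726 to -0.033 with 1 sample left out. The mitochondrial median, 0.38, was 0.3801 to 0.4734 with 1 sample left out, and that of all tested genes, -0.04, was -0.0489 to 0.0296. The direction turned for 5 members, none of which passed. With no filter the log2 fold changes of Eprs, Tars and Vars were -0.0127, -0.0089 and -0.0097. Wars had 0.0296 with relative log expression factors, 0.0146 with a filter of 5 CPM, 0.0297 by DESeq2 and 0.0154 to 0.0718 with 1 sample left out. With 1 sample left out the log2 fold change of Dars ran from -0.0497 to 0.0492. Calls were gained by Eprs (adjusted p 0.035) and Vars (0.015) by DESeq2, by Vars without control replicate 1 (0.03) or EphA4 knockout replicate 3 (0.044), by Tars without control replicate 2 (0.043) and by Hars2 without EphA4 knockout replicate 3 (0.05). The causes were not tested. With a replicate block, the cytosolic genes stayed at 10 lower and 5 higher and the mitochondrial genes at 9 higher and 4 lower, the Lars2 call being lost (adjusted p 0.092). Whole-table calls were then 4624 higher and 5715 lower. Deviations of same-numbered samples from their group means correlated at -0.003, 0.029 and 0.008, and those of other samples at -0.02 to 0.009. Samples were not all closest to their own number. The labels state no pairing, and correlations this small cannot show whether samples were paired. Leaving 1 sample out cannot turn the direction of a partner ratio whose group ranges do not overlap. That check therefore says nothing about the stability of those pairs.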
